A study of Mus musculus with 16 samples.

Results

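The transcription factor p53 is known to switch on the 8 genes Cdkn1a, Mdm2, Ccng1, Zmat3, Plk2, Aen, Gdf15 and Sesn2, which were followed here in LKR10 cells. They were taken by symbol from a table of 12321 genes, all 8 were found, and all 8 were among the 12320 genes tested. Sesn2 and Gdf15, which are also driven by the transcription factor ATF4, were kept apart from the other 6 members. LKR10 is a mouse line established from a lung adenocarcinoma. Its messenger RNA was sequenced in 16 libraries, 4 in each of 4 groups. In 3D shAnkrd35, cells with a short hairpin RNA against Ankrd35 grew in 0.5% methylcellulose, a viscous medium, while in 3D shGFP the hairpin was directed against GFP. In 2D shAnkrd35 and 2D shGFP the same hairpins were in cells grown as a monolayer. Every group, controls included, had been infected with a pLKO lentiviral vector, kept in 4 µg/ml puromycin over a 48 h selection and harvested after another 96 h in DMEM-based medium. The labels give no hairpin sequence, no number of hairpins per target and no p53 status of the line.

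The protein p53 accumulates after DNA damage and other stresses, when its breakdown by the ubiquitin ligase Mdm2 is interrupted. It then binds DNA as a tetramer and raises transcription of genes that stop the cell cycle, repair DNA, limit growth or kill the cell, and also of Mdm2 itself, which closes a feedback loop. ATF4 belongs to another stress pathway, in which shortage of amino acids or misfolded protein in the endoplasmic reticulum slows general translation while ATF4 protein is made, so that genes of amino acid supply and stress are transcribed. Loss of p53 function is frequent in lung adenocarcinoma.

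Of the members, 2 carried sequence that resembles a p53 site in the stretch searched, and these sequences are shown because they are where the factor that defines the set could bind. The stretch was 300 bases per transcript start, 250 before and 50 after it, from RefSeq on GRCm38.p6. The table held 10 such windows for 7 of the 8 members, and Zmat3 was the member with no entry. A p53 full site was counted as 2 of the 10-base elements of the p53 consensus, at most 13 bases apart, with at most 2 mismatches in all and none at the central C and G. Because the consensus is its own reverse complement, both strands were covered. In both windows below, read 5′ to 3′ along the gene, the capitals mark the elements found.
Cdkn1a, chr17:29090729-29091028, plus strand: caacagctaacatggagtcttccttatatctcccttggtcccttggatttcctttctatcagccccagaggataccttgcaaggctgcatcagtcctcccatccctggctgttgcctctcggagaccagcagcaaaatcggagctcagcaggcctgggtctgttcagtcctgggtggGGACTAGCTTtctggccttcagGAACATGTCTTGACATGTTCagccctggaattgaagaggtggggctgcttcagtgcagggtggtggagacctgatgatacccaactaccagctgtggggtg
Ccng1, chr11:40755237-40755536, minus strand: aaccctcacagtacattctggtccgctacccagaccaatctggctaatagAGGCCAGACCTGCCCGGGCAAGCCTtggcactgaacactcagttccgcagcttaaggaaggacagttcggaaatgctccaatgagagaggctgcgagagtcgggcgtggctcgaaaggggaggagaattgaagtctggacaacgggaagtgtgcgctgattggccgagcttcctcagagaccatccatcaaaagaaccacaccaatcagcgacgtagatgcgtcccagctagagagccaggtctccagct
The Cdkn1a window belongs to the upstream of 2 annotated starts, which lie 2790 bases apart. It held 2 overlapping pairs of elements. The pair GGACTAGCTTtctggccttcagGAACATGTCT, at chr17:29090906-29090937 with 12 bases between its elements, had 0 mismatches and began 73 bases before the upstream start. The pair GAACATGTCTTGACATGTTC, at chr17:29090928-29090947 with 0 bases between its elements, had 1 mismatch. From the downstream start the 2 pairs lay 2863 and 2841 bases away. In Ccng1, the pair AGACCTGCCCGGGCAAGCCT at chr11:40755462-40755481 had 1 mismatch and 0 bases between elements, and began 195 bases before the start. An alternative pairing there, AGGCCAGACCtgcccGGGCAAGCCT, had 2 mismatches. At the same tolerance 4.09% of 32851 windows of all genes held a full site, and 4.71% of 27025 genes had such a window. With at most 1 mismatch the same 2 members had one, against 0.718% of all genes and 0.627% of all windows. With no mismatch only Cdkn1a among the members did, against 0.074% of genes and 0.0731% of windows. Sequence outside these windows was not searched. The ATF4 element TGATGNAA, or TTNCATCA on the other strand, was in 0 of the 10 member windows and in 3.97% of all windows. These matches describe the letters of the windows and are not measured binding sites.

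Several features of the whole data set touch the values that follow. The libraries held 13.8 to 28.7 M reads assigned to genes. Levels are given in CPM, counts per M reads of the library size as scaled by the authors. The target of the hairpin, Ankrd35, had 9 to 12 reads in 3D shAnkrd35 libraries and 14 to 17 in 3D shGFP libraries, and 1 to 7 and 2 to 7 reads in the corresponding 2D libraries. That is 0.501 ± 0.0929 CPM for the 3D shAnkrd35 libraries and 0.597 ± 0.0546 CPM for 3D shGFP (SD, n = 4 each, p = 0.143 by a two-sided exact permutation test). The 2D libraries had 0.187 ± 0.137 CPM under shAnkrd35 and 0.219 ± 0.124 CPM under shGFP (SD, n = 4 each, p = 0.657 by the same exact test). Reads pooled over libraries gave shAnkrd35 to shGFP ratios of 0.81 (95% interval 0.54 to 1.23) for 3D and 0.89 (0.42 to 1.85) for 2D, with counting error as the only error in these intervals. A knockdown was thus not detectable at this depth, and the libraries are called shAnkrd35 by their label. Of 8 epithelial markers 6 were measured, with a summed 5263 to 8554 CPM. The libraries also differed in how read counts followed the GC content of genes, with slopes in log2 units per 10% GC of -0.265 to -0.122 in 3D shAnkrd35, -0.295 to -0.234 in 3D shGFP, 0.261 to 0.528 in 2D shAnkrd35 and -0.100 to 0.288 in 2D shGFP. Within 2D shAnkrd35 the library of replicate 1 was an unusual one, with a median absolute log2 deviation over genes of 0.191 from the other 3 libraries, against 0.104 to 0.130 for those. Whether replicates came from separate cultures is not stated in the labels, and p-values therefore cover only library-to-library spread, possibly technical. In such bulk RNA, fewer cells of a kind and less RNA per cell cannot be told apart.

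All 8 genes were expressed. In the mm10 annotation they are protein-coding genes at chr17:29090976-29100727 (Cdkn1a), chr10:117688875-117710758 (Mdm2), chr11:40748552-40755311 (Ccng1), chr3:32334792-32366014 (Zmat3), chr13:110395046-110400844 (Plk2), chr7:78895854-78911209 (Aen), chr8:70629393-70632456 (Gdf15) and chr4:132492032-132510501 (Sesn2). Exonic lengths are over all merged exons, while the exons over which reads were counted are not known. Of the 3553 exonic bases of Cdkn1a, 273 also belong to a gene model on the opposite strand. Reads of that model could not be told apart if strand was not used in counting. Divided by exonic length, so that genes can be compared, Ccng1 was the most abundant in every group, at 117 ± 12.2 CPM per kb in 3D shAnkrd35, 102 ± 6.67 in 3D shGFP, 143 ± 28.6 in 2D shAnkrd35 and 139.9 ± 20.6 for 2D shGFP (SD over 4 libraries throughout). Cdkn1a came second everywhere, with 33.5 ± 1.98 CPM per kb in 3D shAnkrd35, 32.2 ± 1.27 in 3D shGFP, 81.4 ± 6.16 in 2D shAnkrd35 and 84.5 ± 5.0 in 2D shGFP. Gdf15 was the least abundant in every group, with 1.63 ± 0.287 CPM per kb in 3D shAnkrd35, 2.21 ± 0.174 in 3D shGFP, 9.17 ± 1.56 in 2D shAnkrd35 and 11.4 ± 0.999 in 2D shGFP. Between these ends the order changed with growth type. In 3D shGFP, Mdm2 stood at 17.7 ± 0.718 CPM per kb, and Plk2, Aen, Sesn2 and Zmat3 lay close together at 10.3 ± 0.439, 9.50 ± 0.255, 9.12 ± 0.42 and 8.87 ± 0.296. Aen, Sesn2 and Zmat3 were within about 1 SD of their neighbour in that order. In 2D shGFP, Sesn2 at 44.4 ± 3.73 and Plk2 at 43.0 ± 1.04 CPM per kb did not differ beyond their spread and stood above Mdm2 at 22.4 ± 2.1, Zmat3 at 18.3 ± 0.977 and Aen at 17.3 ± 0.694. In 3D shAnkrd35, Mdm2 was at 17.3 ± 0.786, Plk2 at 15.5 ± 0.452, Sesn2 at 13.3 ± 0.65, Aen at 11.1 ± 0.347 and Zmat3 at 8.58 ± 0.303 CPM per kb. In 2D shAnkrd35, Sesn2 at 36.3 ± 2.84 and Plk2 at 35.7 ± 2.58, and likewise Mdm2 at 16.4 ± 1.86 and Aen at 16.4 ± 1.38, were not separated by their spread, and Zmat3 was at 14.7 ± 0.92.

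**Figure D1:**
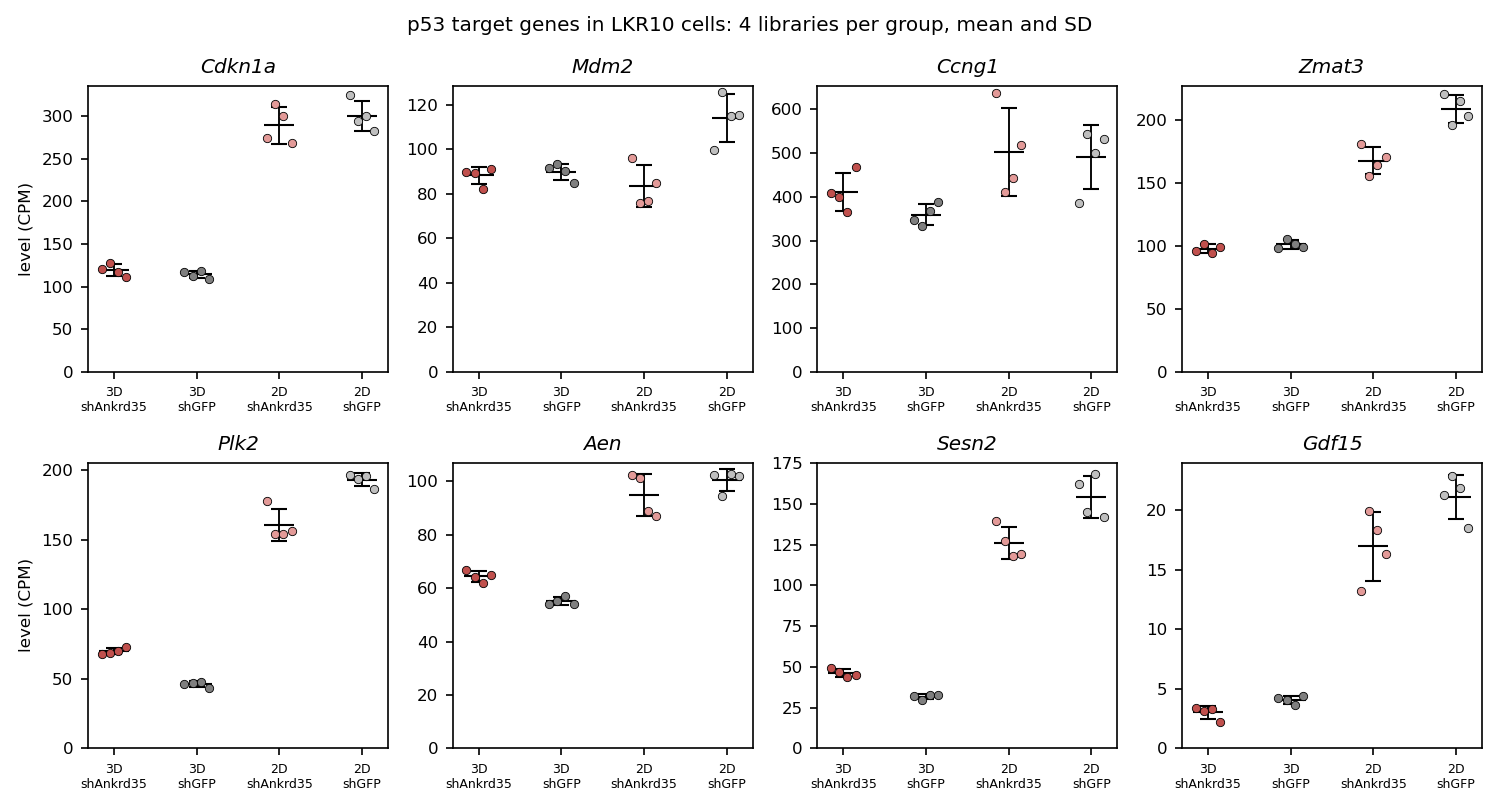
Levels of the 8 genes in CPM in each of the 16 libraries, 1 panel per gene, with the groups from left to right in the order 3D shAnkrd35, 3D shGFP, 2D shAnkrd35 and 2D shGFP, points for libraries and bars for the group mean and SD. Cdkn1a, Zmat3, Plk2, Aen, Gdf15 and Sesn2 sit lower in every 3D library than in any 2D library, whereas the Mdm2 and Ccng1 panels overlap between growth types.

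The first question was how the members differed between 3D and 2D growth within a hairpin. The members that passed were lower in 3D. With shAnkrd35 6 fell and 2, Mdm2 and Ccng1, did not pass the test, and with shGFP all 8 fell, by 0.34 to 2.34 on the log2 scale. Calls are limma adjusted p-values under 0.05 over all 12320 genes. With shAnkrd35 70.4% of all genes were called in either direction, 34.4% higher and 36% lower, and with shGFP 67.2% were called, 35.2% higher and 32.1% lower. The 3D and 2D libraries did not overlap, with 3D lower, in 6 members with shAnkrd35 and 7 with shGFP. Over all genes such groups were lower for 29.3% and higher for 29.9% with shAnkrd35, and lower for 31.6% and higher for 33.3% with shGFP. The members' median log2 change was -0.99 with shAnkrd35 and -1.22 with shGFP, while that of all tested genes was -0.02 and 0.03. The 2 growth comparisons share no library, but both ran in 1 model of all 16.

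Among the cell cycle regulators, Cdkn1a, which encodes the CDK inhibitor p21, had 121, 127, 117 and 111 CPM in 3D shAnkrd35 libraries and 274, 314, 300.2 and 268 CPM in 2D shAnkrd35 libraries. With shGFP it had 117, 112, 119 and 109 CPM in 3D and 324, 294, 299.9 and 282 CPM in 2D. Every 3D library lay far below every 2D library, and the hairpin groups overlapped within each growth type. The log2 change, 3D over 2D, was -1.28 ± 0.06 (SE) with shAnkrd35 (adjusted p = 1.37e-11) and -1.39 ± 0.06 with shGFP (adjusted p = 2.46e-12), a level 2.43-fold and 2.62-fold lower. Plk2, a polo-like kinase of the stress response, had 68.0, 68.7, 69.8 and 72.6 CPM in 3D shAnkrd35 and 178, 154, 154 and 156 CPM in 2D shAnkrd35. Under shGFP it had 46.1, 46.8, 48.0 and 43.4 CPM in 3D and 197, 194, 196 and 186 CPM in 2D. None of these groups overlapped, and the 3D shGFP libraries were the lowest. Plk2 fell by 1.20 ± 0.05 on the log2 scale with shAnkrd35 (adjusted p = 2.96e-12) and by 2.07 ± 0.05 with shGFP (adjusted p = 1.2e-15), 2.30-fold and 4.19-fold. Ccng1 encodes cyclin G1, which recruits a phosphatase to Mdm2. It had 409, 401, 366 and 469 CPM in 3D shAnkrd35 against 638, 412, 444 and 518 CPM in 2D shAnkrd35, and 347, 334, 369 and 387 CPM in 3D shGFP against 386, 545, 501 and 533 CPM in 2D shGFP. Both pairs overlapped, with shAnkrd35 through replicate 4 in 3D and replicates 2 and 3 in 2D, and with shGFP through replicate 4 in 3D and replicate 1 in 2D. With shAnkrd35 the log2 change was -0.28 ± 0.13, which missed the threshold (adjusted p = 0.0689), and with shGFP it was -0.44 ± 0.13 (adjusted p = 0.00737). Ccng1 was the member with the lowest GC content, 40.8%, and with the trend in length and GC removed from each library both comparisons gave -0.89, with an adjusted p of 5.14e-08 with shAnkrd35. With shAnkrd35 the call also appeared without replicate 2 of 2D shAnkrd35 (log2 change -0.37, limma adjusted p = 0.0225), without replicate 4 of 3D shAnkrd35 (-0.34, 0.0405) and without replicate 1 of 2D shGFP (-0.28, 0.0312).

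Mdm2, the ligase that limits p53, was called lower in 3D with shGFP but not with shAnkrd35, and the growth differences under the 2 hairpins differed by 0.43 ± 0.11 (adjusted p = 0.00625). It had 89.7, 89.5, 82.3 and 91.3 CPM in 3D shAnkrd35 and 96.0, 75.6, 76.6 and 84.9 CPM in 2D shAnkrd35. The shGFP libraries had 91.5, 93.1, 90.1 and 84.7 CPM in 3D and 99.8, 126, 115 and 115 CPM in 2D. The 3D libraries of both hairpins and the 2D shAnkrd35 libraries overlapped, and only 2D shGFP stood above. The log2 change was 0.09 ± 0.08 with shAnkrd35 (adjusted p = 0.304) and -0.34 ± 0.08 with shGFP (adjusted p = 0.00077). Without replicate 1 of 2D shAnkrd35 the change with that hairpin was 0.16 (adjusted p = 0.0404).

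The members that act on RNA and in cell death fell too. Zmat3, a zinc finger protein that binds RNA, had 96.3, 102, 94.2 and 99.7 CPM in 3D shAnkrd35 and 181, 156, 164 and 171 CPM in 2D shAnkrd35, and its log2 change was -0.77 ± 0.05 (adjusted p = 1.2e-09). With shGFP it had 98.2, 106, 102 and 99.6 CPM in 3D and 221, 196, 216 and 204 CPM in 2D, a log2 change of -1.04 ± 0.05 (adjusted p = 1.51e-11). The 3D libraries of both hairpins lay within 94.2 to 106 CPM, and the 2D libraries within 156 to 221 CPM. Aen, an exonuclease that promotes apoptosis, had 66.7, 64.2, 61.8 and 65.0 CPM in 3D shAnkrd35 and 102, 101, 88.7 and 87.2 CPM in 2D shAnkrd35, a log2 change of -0.55 ± 0.05 (adjusted p = 1.44e-07). With shGFP it had 54.2, 55.1, 57.2 and 53.9 CPM in 3D and 102, 94.5, 103 and 102 CPM in 2D, a log2 change of -0.87 ± 0.05 (adjusted p = 3.95e-10). No 3D group of Aen overlapped its 2D group.

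The 2 members also driven by ATF4 had the largest log2 changes between growth types of the 8. Sesn2, which encodes sestrin 2, a leucine-binding inhibitor of mTORC1 signalling, had 49.0, 46.9, 43.8 and 45.2 CPM in 3D shAnkrd35 and 139, 128, 118 and 119 CPM in 2D shAnkrd35. The shGFP libraries had 31.8, 29.6, 32.8 and 32.5 CPM in 3D and 162, 145, 169 and 142 CPM in 2D. No groups overlapped. Sesn2 fell by 1.44 ± 0.07 with shAnkrd35 (adjusted p = 9.89e-12) and by 2.28 ± 0.07 on the log2 scale with shGFP (adjusted p = 1.32e-14), 2.72-fold and 4.85-fold. Gdf15, a secreted stress cytokine of the TGF-beta superfamily, had 3.38, 3.16, 3.30 and 2.23 CPM in 3D shAnkrd35 and 13.3, 19.9, 18.4 and 16.3 CPM in 2D shAnkrd35. The shGFP libraries had 4.19, 4.05, 3.67 and 4.44 CPM in 3D and 21.3, 22.9, 21.8 and 18.5 CPM in 2D. The highest 3D library was at 4.44 CPM and the lowest 2D library at 13.3 CPM. Gdf15 fell by 2.46 ± 0.14 with shAnkrd35 (adjusted p = 1.38e-10) and by 2.34 ± 0.14 with shGFP (adjusted p = 1.52e-10), 5.50-fold and 5.08-fold. The median log2 change of these 2 members was -1.95 with shAnkrd35 and -2.31 with shGFP, and that of the other 6 members was -0.66 with shAnkrd35 and -0.95 with shGFP, where 4 and 6 of the 6 passed as lower. Among those 6, Plk2 with shGFP (-2.07) came near the ATF4-driven pair, so the 2 sets were not separated by size in every member.

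**Figure D2:**
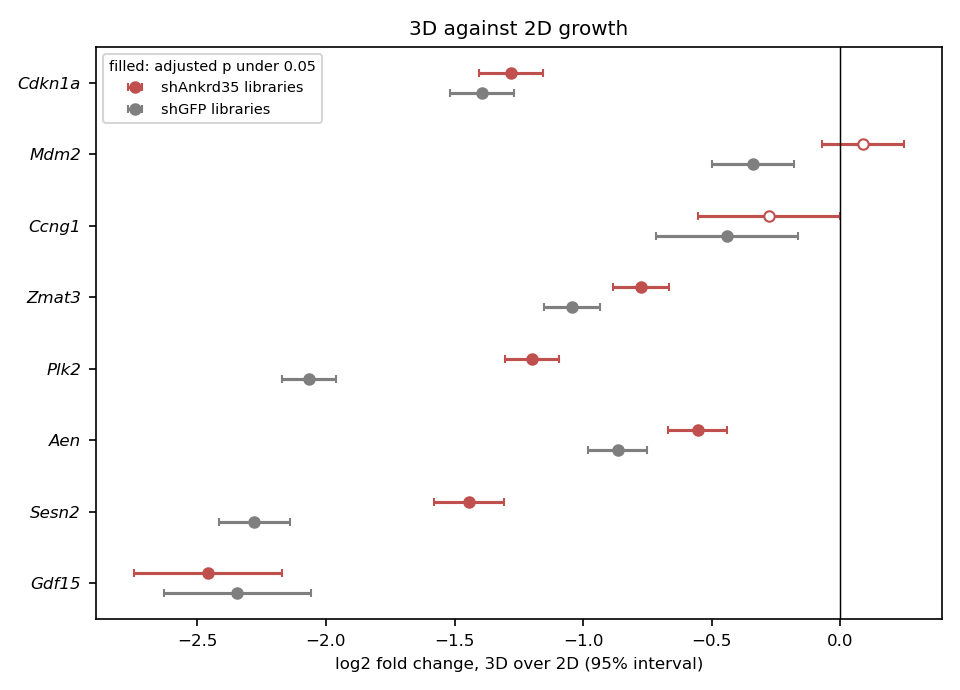
Log2 fold changes of the 8 genes, 3D over 2D, with shAnkrd35 and with shGFP, as points with 95% intervals, filled where the limma adjusted p is under 0.05. With shAnkrd35 the Mdm2 and Ccng1 points are open, and with shGFP all 8 points lie below 0, from -0.34 for Mdm2 to -2.34 for Gdf15.

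Some markers of other cell types and the GC slopes moved with growth type, with the hairpin, or with both. Of 6 macrophage markers the 3 measured, Cd68, Cd14 and Lyz2, summed to 130 to 152 CPM in 3D shAnkrd35, 116 to 124 in 3D shGFP, 79.5 to 87.9 in 2D shAnkrd35 and 41.4 to 42.7 in 2D shGFP, while the defining markers Ptprc, Csf1r and Adgre1 were not among the genes analysed here. Of these 3 only 1 was called higher in 3D with shAnkrd35, where their log2 changes ran from -1.17 to 0.79. With shGFP 2 were called higher. Over all genes 34.4% and 35.2% were called higher in these comparisons. Of 8 fibroblast markers 5 were measured, with a summed 12.6 to 48.2 CPM in 3D shAnkrd35, 25.3 to 29.0 in 3D shGFP, 20.8 to 21.9 in 2D shAnkrd35 and 31.8 to 34.6 in 2D shGFP, so that the sums of the growth types overlapped with shAnkrd35 and were lower in 3D in each library with shGFP. As single genes, 3 of the 5 were called lower in 3D with each hairpin and 2 were not called. Over all genes 36% were lower with shAnkrd35 and 32.1% with shGFP. Of 6 endothelial markers only Vwf was measured, with 3.06 to 4.00 CPM in 3D shAnkrd35, 1.01 to 1.52 in 3D shGFP, 4.42 to 5.66 in 2D shAnkrd35 and 0.995 to 1.90 in 2D shGFP. None of the 6 lymphocyte or the 6 erythroid markers was among the genes analysed here. The part of these markers in the members' values was not tested. With the length and GC trend removed, the growth differences of the other called members kept their sign and call, for example -1.07 with shAnkrd35 and -1.99 with shGFP for Plk2, and -1.12 with shAnkrd35 and -2.06 with shGFP for Sesn2. Aen with shAnkrd35 gave -0.36 in that fit.

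The second question was how the members in shAnkrd35 libraries differed from those in shGFP libraries within each growth type. This difference between labels is called the hairpin effect below. As a knockdown was not detectable, Ankrd35 itself, the hairpin and the cultures cannot be told apart as its source. In 3D, 3 of 8 rose, Plk2, Sesn2 and Aen, and 1, Gdf15, fell. In all, 29.7% of tested genes were called in this comparison, 15% higher and 14.6% lower. The members' median log2 change was 0.12, against -0.000456 for all tested genes. Plk2 was higher in every 3D shAnkrd35 library (68.0 to 72.6 CPM) than in any 3D shGFP library (43.4 to 48.0 CPM), by 0.60 ± 0.05 on the log2 scale (adjusted p = 1.15e-07). Sesn2 was likewise higher throughout, with 43.8 to 49.0 CPM against 29.6 to 32.8 CPM in 3D shGFP, a log2 change of 0.54 ± 0.07 (adjusted p = 7.48e-06). Aen had 61.8 to 66.7 CPM in 3D shAnkrd35 and 53.9 to 57.2 CPM in 3D shGFP, a log2 change of 0.23 ± 0.05 (adjusted p = 0.00445). Gdf15 fell, with 2.23 to 3.38 CPM in 3D shAnkrd35 and 3.67 to 4.44 CPM in 3D shGFP, by 0.44 ± 0.14 on the log2 scale (adjusted p = 0.0213). It had 43 to 84 reads per library in 3D shAnkrd35 and 95 to 132 in 3D shGFP. The call was lost without replicate 4 of 3D shAnkrd35 (log2 change -0.31, adjusted p = 0.0734), without replicate 1 (-0.43, 0.0503) or replicate 4 (-0.40, 0.0633) of 3D shGFP, and with limma-voom weights (-0.44, 0.104). The groups of these 4 members did not overlap in 3D, where 18.8% of all genes had higher and 19.4% lower non-overlapping groups. The remaining 4 members had log2 changes of 0.06 for Cdkn1a (95% interval -0.07 to 0.18, adjusted p = 0.53), -0.03 for Mdm2 (adjusted p = 0.834), -0.05 for Zmat3 (adjusted p = 0.525) and 0.19 for Ccng1 (adjusted p = 0.302). Ccng1 passed when only the 8 3D libraries were fitted (adjusted p = 0.0386), and with the length and GC trend removed (0.31, adjusted p = 0.00611).

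In 2D the members that changed were lower with shAnkrd35. Of the 8, 5 fell, Mdm2, Zmat3, Plk2, Sesn2 and Gdf15, 0 rose and 3 did not pass. Here 57.9% of all genes were called, 28.8% lower and 29% higher. The members' median log2 change was -0.28, against 0.01 for all tested genes. Mdm2 had 75.6 to 96.0 CPM with shAnkrd35 and 99.8 to 126 CPM with shGFP, a change of -0.45 ± 0.08 (adjusted p = 8.88e-05). Zmat3 had 156 to 181 CPM with shAnkrd35 and 196 to 221 CPM with shGFP, a change of -0.32 ± 0.05 (adjusted p = 6.57e-05). Plk2 had 154 to 178 CPM with shAnkrd35 and 186 to 197 CPM with shGFP, a change of -0.27 ± 0.05 (adjusted p = 0.000234). Sesn2 had 118 to 139 CPM with shAnkrd35 and 142 to 169 CPM with shGFP, a change of -0.29 ± 0.07 (adjusted p = 0.00121). These 4 groups did not overlap, a pattern shown by 17.5% of all genes, while 22.3% had groups that did not overlap and were higher. Gdf15 had 13.3 to 19.9 CPM with shAnkrd35 and 18.5 to 22.9 CPM with shGFP, so its groups overlapped, and its change of -0.33 ± 0.14 was just inside the threshold (adjusted p = 0.0495). It was not called in most fits that left out a library, with a change of -0.21 (adjusted p = 0.162) without replicate 1 of 2D shAnkrd35.

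The other 3 members did not pass in 2D. Cdkn1a had 268 to 314 CPM with shAnkrd35 and 282 to 324 CPM with shGFP, and its log2 change was -0.06 ± 0.06 (95% interval -0.18 to 0.07, adjusted p = 0.434). Aen had 87.2 to 102 CPM with shAnkrd35 and 94.5 to 103 CPM with shGFP, a change of -0.09 ± 0.05 (adjusted p = 0.182), and Ccng1 had 412 to 638 CPM and 386 to 545 CPM, a change of 0.03 ± 0.13 (adjusted p = 0.869). The summed macrophage, epithelial and endothelial markers, too, did not overlap between the hairpins in 2D, and were higher with shAnkrd35. They had 79.5 to 87.9, 7027 to 8554 and 4.42 to 5.66 CPM for shAnkrd35 against 41.4 to 42.7, 5263 to 5761 and 0.995 to 1.90 CPM for shGFP. The summed fibroblast markers did not overlap either but were lower, with 20.8 to 21.9 CPM for shAnkrd35 against 31.8 to 34.6 CPM for shGFP. A sum is weighted to its most abundant genes, and the single markers did not all move alike. Called higher were 2 of 3 macrophage and 4 of 6 epithelial markers, while 1 epithelial marker was called lower. Of 5 fibroblast markers 2 were called lower and 3 were not called. Of all genes 29% were higher and 28.8% lower. The part of these markers in the members' values was not tested. The 2D values moved when the libraries' GC slopes were taken out. With the length and GC trend removed, Cdkn1a was called at -0.22 (adjusted p = 0.000167), Aen at -0.16 (0.00458) and Ccng1 at 0.31 (0.00386). The 5 called members kept their sign and call, but Zmat3 was smaller at -0.17 (adjusted p = 0.00264), and Gdf15 at -0.57 (0.000168) and Sesn2 at -0.46 were larger. Without replicate 1 of 2D shAnkrd35, Aen was called at -0.12 (adjusted p = 0.0477) and Ccng1 gave -0.09, with no call.

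**Figure D3:**
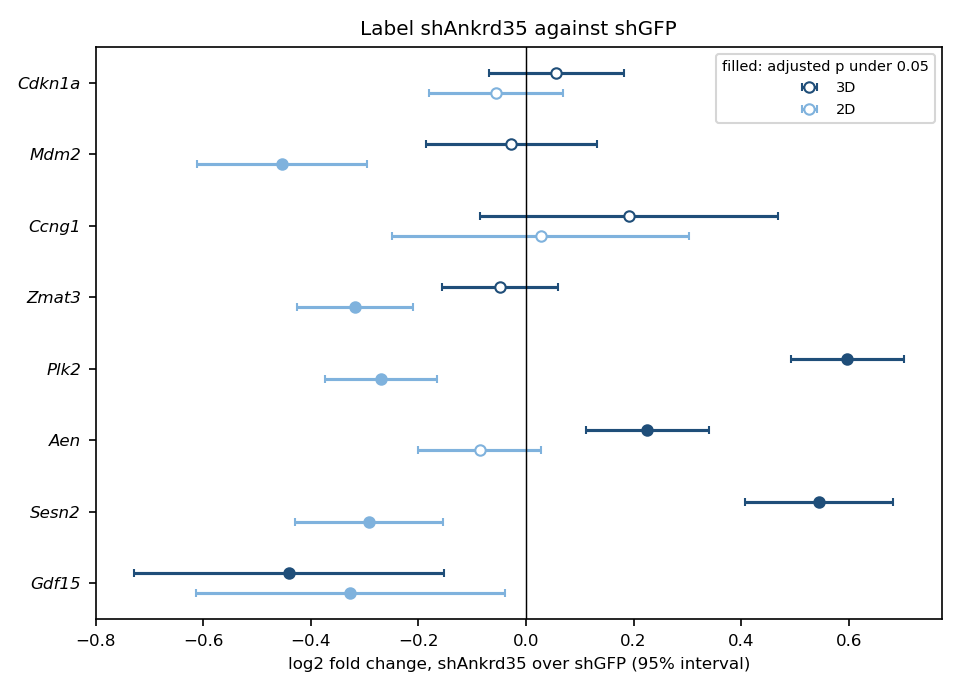
Log2 fold changes of the 8 genes, shAnkrd35 over shGFP, in 3D and in 2D, as points with 95% intervals, filled where the limma adjusted p is under 0.05. Plk2 and Sesn2 lie above 0 in 3D (0.60 and 0.54) and below 0 in 2D (-0.27 and -0.29), and Gdf15 lies below 0 in both.

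The hairpin effect of 5 members differed between growth types by limma's test of the difference itself, 3D minus 2D, and in all 5 the difference was above 0. Over all tested genes 35.8% differed, 17.1% above 0 and 18.6% below. The difference was 0.87 ± 0.07 for Plk2 (adjusted p = 3.18e-07) and 0.84 ± 0.09 for Sesn2 (adjusted p = 6.53e-06), where the signs in 3D and 2D were opposite. It was 0.43 ± 0.11 for Mdm2 (adjusted p = 0.00625), 0.31 ± 0.08 for Aen (adjusted p = 0.00582) and 0.27 ± 0.07 for Zmat3 (adjusted p = 0.00943). For Zmat3 the call was lost once the length and GC trend was removed (0.11, adjusted p = 0.198). For Cdkn1a (0.11, adjusted p = 0.309) and Ccng1 (0.16, adjusted p = 0.51) no difference was shown. Cdkn1a passed with the trend removed (0.25, adjusted p = 0.00328), and Ccng1 without both 2D libraries numbered 1 (0.40, adjusted p = 0.0121). Gdf15, the other ATF4-driven member, had a difference of -0.11 ± 0.19 (95% interval -0.52 to 0.29, adjusted p = 0.672). A difference of 0.84 on the log2 scale, the size seen for Sesn2, is outside that interval.

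Profiles over the 4 group means, centred on the log2 scale, put Sesn2 next to Plk2 and not next to Gdf15. Their root mean square distance was 0.116, the smallest of the pairs of members, against 0.441 between Sesn2 and Gdf15. Among 10250 genes with a mean of at least 5 CPM, Plk2 was the nearest gene to Sesn2 and Sesn2 the nearest to Plk2. The next nearest were Ccnd2 for Sesn2 (0.189) and Bbc3 for Plk2 (0.162). Near profiles were found for Cdkn1a in Aig1 (0.0216) and Shmt2 (0.0550), for Mdm2 in Ank1 (0.00587) and Tsc22d2 (0.00777), for Ccng1 in Carm1 (0.00532) and Apba3 (0.00748), for Zmat3 in Pla2g15 (0.0253) and Arhgef10 (0.0313), for Aen in Farp1 (0.0150) and Exog (0.0211), and for Gdf15 in Dusp8 (0.111) and Cnn2 (0.166). With only 4 group means a distance this small describes a profile and gives no test.

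Trp53 itself, the gene for p53, had 163 to 187 CPM in 3D shAnkrd35, 167 to 182 in 3D shGFP, 214 to 269 in 2D shAnkrd35 and 182 to 201 in 2D shGFP. It was higher with shAnkrd35 in 2D (log2 change 0.40 ± 0.07, adjusted p = 0.000101), while its targets above were lower or did not pass there, and it was lower in 3D than in 2D with shAnkrd35 (-0.49 ± 0.07, adjusted p = 5.56e-06). With the length and GC trend removed these Trp53 values were 0.25 (adjusted p = 0.000538) and -0.23 (adjusted p = 0.000765). With shGFP the growth difference of Trp53 was -0.14 ± 0.07 (adjusted p = 0.0808). It gave 0.01 once the length and GC trend was removed, and it was called when only the 8 libraries were fitted (adjusted p = 0.0190) and without replicate 1 of 2D shAnkrd35 (adjusted p = 0.0183). Messenger RNA says nothing of the amount or activity of p53 protein, which is set mainly by its breakdown. Mdm4, an inhibitor of p53 related to Mdm2, had 117 to 134 CPM in 3D shAnkrd35, 111 to 139 in 3D shGFP, 38.0 to 53.7 in 2D shAnkrd35 and 50.2 to 109.8 in 2D shGFP. It was higher in 3D with shAnkrd35 (1.47 ± 0.19, adjusted p = 6.58e-06) and with shGFP (0.75 ± 0.19, adjusted p = 0.00244), opposite to the direction of the called members among the 8. It was lower with shAnkrd35 in 2D (-0.73 ± 0.19, adjusted p = 0.00391), where the groups overlapped. With the trend removed, Mdm4 gave 0.97 in 3D against 2D with shAnkrd35 and -0.36 (adjusted p = 0.0343) with shAnkrd35 in 2D. Atf4 had 118 to 136 CPM in 3D shAnkrd35, 134 to 140 in 3D shGFP, 259 to 354 in 2D shAnkrd35 and 534 to 559 in 2D shGFP. It fell in 3D by 1.26 ± 0.07 with shAnkrd35 and by 2.00 ± 0.07 with shGFP (adjusted p = 1.41e-10 and 1.90e-13), and with shAnkrd35 in 2D by 0.83 ± 0.07 (adjusted p = 6.36e-08), but its change in 3D was -0.09 ± 0.07 (adjusted p = 0.383). With the trend removed Atf4 was called lower in 3D as well (-0.13, adjusted p = 0.0455).

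The other genes of the pathways were taken from lists. Beside every list count below stand these shares over all tested genes. In 3D against 2D 34.4% were higher and 36% lower with shAnkrd35, and 35.2% and 32.1% with shGFP. With shAnkrd35 against shGFP 15% were higher and 14.6% lower in 3D, and 29% and 28.8% in 2D. The difference of hairpin effects was called above 0 for 17.1% and below 0 for 18.6%. Of 38 tested other p53 targets out of 40 listed, 22 were lower and 7 higher in 3D with shAnkrd35, with a median log2 change of -0.25 against -0.02 for all genes, and 19 lower and 7 higher with shGFP, with a median of -0.19 against 0.03. Unlike the members, the genes of this list were not sorted by whether ATF4 also drives them. The apoptosis gene Bbc3, encoding Puma, fell with log2 changes of -1.26 ± 0.10 with shAnkrd35 and -1.74 ± 0.10 with shGFP, and Gadd45a, a growth arrest and DNA damage gene, fell too, at -0.91 ± 0.15 with shAnkrd35 and -2.52 ± 0.15 with shGFP. Phlda3, an inhibitor of Akt, was lower at -1.04 ± 0.07 with shAnkrd35 and -1.06 ± 0.07 with shGFP. Cd82, a tetraspanin, was among the 7 that rose with each hairpin, by 0.64 ± 0.04 with shAnkrd35 and by 0.38 ± 0.04 with shGFP. Other genes of the list rose more, and its log2 changes ran from -1.26 to 1.18 with shAnkrd35 and from -2.52 to 1.11 with shGFP. With shAnkrd35 against shGFP genes of the list were called in both directions. In 3D 6 were higher and 7 lower (median 0.03), against 15% and 14.6% of all genes. In 2D 15 were higher and 11 lower (median 0.02), against 29% and 28.8%. In 3D Sulf2 (0.39 ± 0.04) rose and Plk3 (-0.79 ± 0.11) and Cd82 (-0.33 ± 0.04) fell, and in 2D the glutaminase gene Gls2 (0.94 ± 0.09) and Psrc1 (0.75 ± 0.06) rose and Gadd45a (-1.39 ± 0.15) and Cd82 (-0.59 ± 0.04) fell. Of 16 tested regulators of p53 out of 18, 8 were higher and 4 lower in 3D with shAnkrd35 (median 0.25), and 10 higher and 2 lower with shGFP (median 0.36). Sirt1, a deacetylase of p53, rose by 1.71 ± 0.20 with shAnkrd35 and by 1.07 ± 0.20 with shGFP, and Trp63, a relative of p53, was lower at -1.31 ± 0.14 with shAnkrd35 and -1.64 ± 0.14 with shGFP. In 2D shGFP, Sirt1 had 8.98 CPM in replicate 1, which had the group's highest GC slope (0.288), and 16.3 to 18.3 CPM in the other replicates. Of these regulators, only Trp53 and Mdm4 were followed with the length and GC trend removed.

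Most genes of the ATF4 list were lower in 3D. Of 27 tested genes out of 28 listed, 25 fell in 3D with each hairpin and 1 rose, with medians of -1.25 with shAnkrd35 and -1.77 with shGFP. Trib3, a pseudokinase induced by ATF4, had 6.06 to 7.02 CPM in 3D shAnkrd35, 7.29 to 8.07 in 3D shGFP, 73.2 to 89.2 in 2D shAnkrd35 and 268 to 297 in 2D shGFP, and the folate enzyme gene Mthfd2 was lower at -2.22 ± 0.05 with shAnkrd35 and -2.99 ± 0.05 with shGFP. With shAnkrd35 against shGFP, 9 fell, 4 rose and 14 were not called in 3D, while in 2D 25 fell and 1 rose, with a median of -0.83. Among those that fell in 2D were Trib3 (-1.86 ± 0.07) and the amino acid transporter gene Slc7a5 (-1.61 ± 0.08). Sesn2 and Gdf15 were in the same direction as this list in both growth comparisons and with shAnkrd35 in 2D, but in 3D Sesn2 rose and Gdf15 fell. The difference of hairpin effects was called above 0 for 20 of the 27, called below 0 for 1 and not called for 6, with a median of 0.54. With the length and GC trend removed, 0 genes of this list were higher in 3D with shAnkrd35 and 0 were higher with shAnkrd35 in 2D. Without both 2D libraries numbered 1, 2 were higher with shAnkrd35 in 2D and 2 had a difference called below 0.

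**Figure D4:**
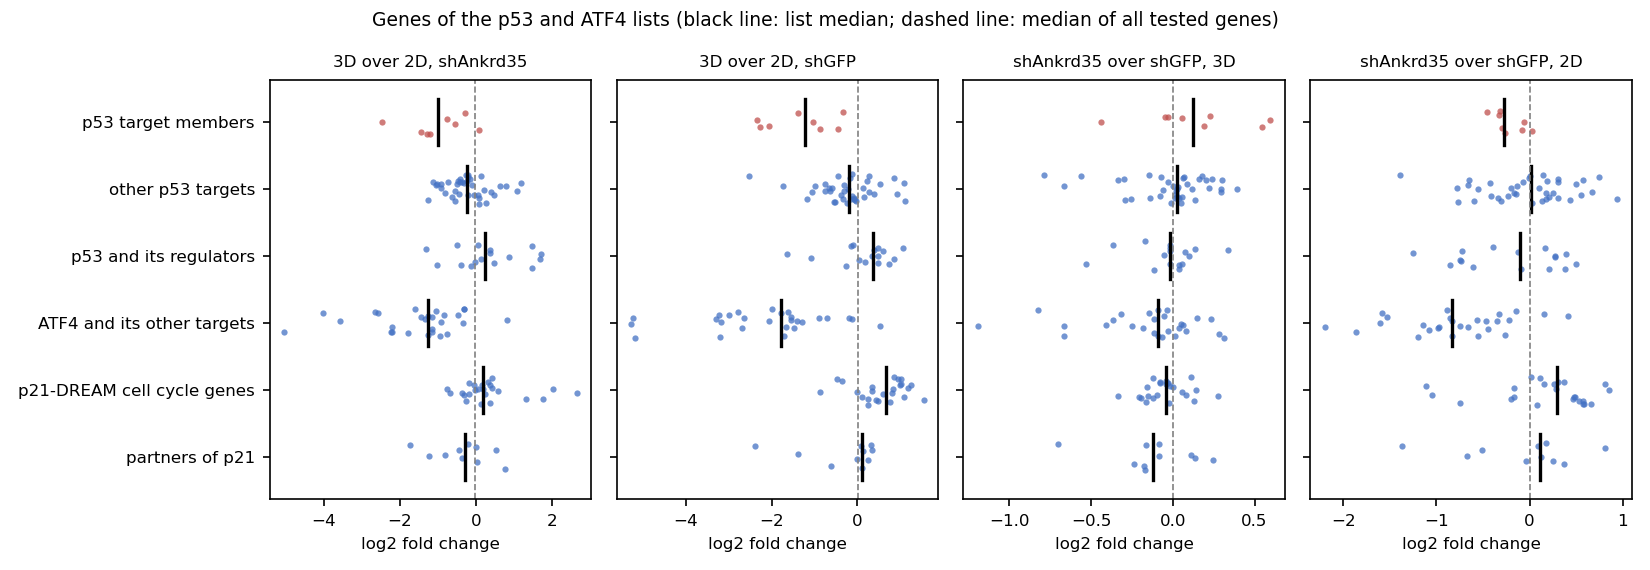
Log2 fold changes of the genes of each list in the 4 comparisons named above the panels, as points per gene, with a black line at the list's median and a dashed line at the median of all tested genes. The ATF4 list lies lowest in the growth comparisons (medians -1.25 with shAnkrd35 and -1.77 with shGFP) and the p21-DREAM list lies above the dashed line with shGFP (median 0.68).

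Another list held cell cycle genes that the DREAM complex represses when p21 is high, and more of these rose than fell in 3D. Of 24 tested, 12 rose and 6 fell with shAnkrd35 (median 0.17), against 34.4% and 36% of all genes. With shGFP 19 rose and 3 fell (median 0.68), against 35.2% and 32.1%. Whether the fall of Cdkn1a in 3D had a part in this was not tested. Cdc20, an activator of the anaphase-promoting complex, rose by 0.19 ± 0.06 with shAnkrd35 and by 1.08 ± 0.06 with shGFP, while E2f1 was lower at -0.77 ± 0.06 with shAnkrd35 and -0.87 ± 0.06 with shGFP. With shAnkrd35 against shGFP, 1 rose and 2 fell in 3D (median -0.04), against 15% and 14.6% of all genes. In 2D 15 rose and 4 fell (median 0.30), against 29% and 28.8%. There Cdkn1a did not pass, but it was called lower with the length and GC trend removed (-0.22, limma adjusted p = 0.000167). The 3D count of genes that fell was 1 without replicate 1 of 3D shAnkrd35, 5 without replicate 1 of 2D shAnkrd35 and 6 when only the 8 libraries were fitted, and the count that rose was 3 in that last fit and 2 with the trend removed. The 10 tested partners of p21, out of 12 listed, gave 6 lower and 2 higher in 3D with shAnkrd35, and 3 lower and 4 higher with shGFP, where the D-type cyclin genes Ccnd2 (-2.38 ± 0.06), Ccnd1 (-1.38 ± 0.05) and Ccnd3 (-0.62 ± 0.06) were the 3 that fell. Cdk6, a kinase of these cyclins, was lower with shAnkrd35 in both growth types, by 0.70 ± 0.10 in 3D and 1.37 ± 0.10 in 2D.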

How the data were processed

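Messenger RNA of 16 LKR10 libraries was measured, grouped by the labels' growth type and hairpin. The genome was mm10 and the tools were STAR 2.5.1b, Trimmomatic 0.38 and edgeR, per the submitters' processing notes. For the counting program, annotation, use of strand and filter, the sources used here name nothing. The values the authors deposited are log2 CPM, computed with a prior that averages 2 reads and a scaled library size. Taking off the prior gave whole reads within 0.01 reads for 100% of values, and from these came the CPM levels. There were 0 columns of other samples. GENCODE M21 matched 12217 symbols and left 104 unmatched, after 385 altered symbols were restored, and 99.2% of genes had a length and GC content.

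A filter of 1 CPM (prior included) in 4 or more libraries kept 12320 of 12321 genes and removed Ankrd35. Tests used limma 3.58.1 under R 4.3.3 (trend, robust, statmod 1.5.0) on the log2 values, in a cell-means model of the 4 groups with 5 contrasts. Benjamini-Hochberg adjustment ran over all tested genes, with a threshold of 0.05, and every adjusted p in the text comes from limma. Folds include the prior and understate changes of low genes. Ankrd35 was compared by exact permutation over 70 arrangements. The 8 members were all named. From each list the 4 genes with the smallest p in each contrast between groups could be named, beside Trp53, Mdm4, Atf4 and Ankrd35, and for each member the 2 genes with the nearest profile. The members and lists were chosen with earlier results of these data known. The steps were checked on simulated data. Alternatives covered the filter, prior count, scaling, libraries fitted, replicate block, length and GC trend, and left-out libraries. Fits with limma-voom and p53 sites with no spacer were added after seeing the data.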

Additional observations from a re-analysis of the deposited data

Results flagged for a closer look

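The hairpin effect differed between growth types, by limma's test of the difference, in 5 members and in 3 further genes that were named in any case. On the log2 scale, 3D minus 2D, the difference was 0.87 for Plk2, 0.84 for Sesn2, 0.43 for Mdm2, 0.31 for Aen and 0.27 for Zmat3. It was 0.74 for Atf4, 0.72 for Mdm4 and -0.36 for Trp53. The Mdm4 call (adjusted p = 0.0463) was lost with a replicate block (adjusted p = 0.0684), with the length and GC trend removed (0.35, adjusted p = 0.164) and in most fits that left out a library. In 2D shGFP, Mdm4 ranged over 50.2 to 109.8 CPM, and replicate 1, its lowest library, had the group's highest GC slope, 0.288.

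Of 44 groups checked, 4 held a library far from the other 3, where chance flags about 1 group in 20. Plk2 had 178 CPM in replicate 1 of 2D shAnkrd35, against 153.9 to 156.3 CPM in the others. Aen had 94.5 CPM in replicate 2 of 2D shGFP, against 102.1 to 103 CPM. Mdm4 had 117 CPM in replicate 3 of 3D shAnkrd35, against 132.9 to 133.8 CPM, and 111 CPM in replicate 4 of 3D shGFP, against 135.7 to 138.7 CPM.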

How the results depend on the processing

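Of 40 member values 28 were called, and 25 of these kept direction and call under every alternative run. Over 751 comparisons of called values with an alternative, all 751 kept their direction and 729 their call. Many of these alternatives could not change a direction. They are the filter, the replicate block, the fit of only the 8 libraries, and a left-out library from outside the compared groups. In such fits only the spread or the adjustment changes, and the log2 change stays the same. The count of members called higher in 3D with shAnkrd35 became 1 without both 2D libraries numbered 1 (Mdm2, 0.16), and it ranged over 0 to 1 with single libraries left out. The count called higher with shAnkrd35 in 2D became 1 with the length and GC trend removed, with and without a replicate block (Ccng1). The count called lower with shAnkrd35 in 3D became 0 with limma-voom, and ranged over 0 to 1 with single libraries left out. The Ankrd35 ratio, shAnkrd35 to shGFP, ranged over 0.765 to 0.887 in 3D and 0.648 to 1.07 in 2D with single libraries left out. It turned round without replicate 4 of 2D shAnkrd35 (1.06) or of 2D shGFP (1.07). The causes were not tested.

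Values that changed sign were all uncalled. Ccng1 in 2D gave -0.21 without both libraries numbered 1, and ranged over -0.0941 to 0.116 with single libraries left out. Cdkn1a in 2D gave 0.0073 without both libraries numbered 1. The Gdf15 difference gave 0.0679 with the trend removed, with or without the block, and -0.227 to 0.0194 with single libraries left out. Mdm2 in 3D gave 0.0160 with the trend removed, with or without the block, and -0.0553 to 0.0055 with single libraries left out. Mdm4 in 3D gave -0.0919 to 0.0334 with single libraries left out. Trp53 in 3D against 2D with shGFP gave 0.0076 with the trend removed, with or without the block.

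Replicate numbers did not pair the libraries. Correlations of same-numbered deviations ran over -0.197 to 0.153 between hairpins in 3D and -0.483 to 0.206 in 2D, where 0 of 8 libraries lay closest to their own number. With the replicate block, 1748 genes were higher and 1700 lower in 3D, against 1854 and 1801, and 3499 higher and 3468 lower in 2D, against 3575 and 3554. Among members the block ended only the Gdf15 call in 2D (adjusted p = 0.0541). The deposited values are log2, and tests by edgeR or DESeq2 were not run, although the recovered whole reads would have allowed them. The longer motif windows were not run either.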
